A study of Homo sapiens with 6 samples.

Results

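The genes described here are 29 members of the p53 response, 26 of them known targets of the transcription factor p53 and 3 the GADD45 genes, taken by gene name from 20660 gene names in a table of RNA sequencing values. FaDu cells, an established squamous carcinoma line of the hypopharynx, were treated with BB608, a compound known here only by its code name, or with its vehicle DMSO. Each group had 3 biological replicates, and the deposited table gives 1 pooled FPKM value (sequenced fragments per kilobase of transcript, scaled to the size of the library) per group for each coding sequence. The question was how BB608 changes gene expression in this line. All values come from 1 cell line, and neither dose nor treatment time is given in the sources used here.

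The transcription factor p53 is held low by the ubiquitin ligase MDM2 and, after DNA damage or other stress, turns on genes that arrest the cell cycle, repair DNA or start apoptosis. MDM2 is itself a target, which closes a negative feedback loop. The GADD45 genes encode small acidic nuclear proteins that bind PCNA, cyclin-dependent kinase complexes and the stress kinase MAP3K4. GADD45A is the member best known as a p53 target, whereas GADD45B and GADD45G are also induced by cytokines and growth factors without p53.

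With BB608, GADD45A and GADD45B fell, each in its most abundant coding sequence, and no other member changed by the test used. These were 2 of the 26 members with a tested coding sequence, whereas 0.63% of 11429 tested genes had a coding sequence that was lower in BB608 at Cuffdiff's q under 0.05 in the authors' deposited table. No member rose at that q, against 0.429% of all tested genes. The members were chosen with earlier results of these data known, so these counts do not show that the list holds more calls. Among the 23 tested members outside the GADD45 family the count by Cuffdiff's q was 0 and by an unadjusted p under 0.05 it was 2, namely TP53I3 and SESN1, whereas 9.49% of all tested genes had such a p. Normal p-values called GADD45A and GADD45B and no other member, but they derive from the same authors' statistic and are no independent check. The remaining 3 members, TNFRSF10A, TP53INP1 and PLK3, were not tested by the authors and lay at or under 0.212 FPKM in both groups.

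The FPKM values of every row with a given gene name were added up to a gene sum, which has no error because no value per library was analysed here. Errors of single coding sequences are the standard error implied by the authors' statistic and p, called implied SE, and a 95% interval is an approximation from it. Sequencing depth is unknown. The listed loci of MDM2, CCNG1, PLK3, FAS, TNFRSF10B, TP53INP1, EI24, TRIAP1, RPS27L, XPC, POLH and TP53I3 also carry other gene names. A smaller share of cells expressing a gene and less RNA per expressing cell cannot be told apart in these bulk values. All 10 squamous epithelial markers looked at were tested, at gene sums of 2.36 to 2472 FPKM in BB608 and 2.64 to 2334 FPKM in DMSO. The 6 fibroblast markers summed to 0.865 FPKM in BB608 and 1.01 FPKM in DMSO, with LUM at 0 in both. Of 5 blood and endothelial markers found, only the cadherin gene CDH5 was tested, at 4.09 FPKM in BB608 and 3.82 FPKM in DMSO.

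Promoter sequences are shown for the GADD45B and GADD45G genes. GADD45A had no entry among the promoters used, so its promoter was not searched. RefSeq promoters of GRCh38.p14, running from 250 bases before to 50 after the annotated start, matched 23 of the 29 members by symbol. The GADD45B window is chr19:2475877-2476176 and that of GADD45G is chr9:89604762-89605061, both on the plus strand and written 5′ to 3′. Capitals mark matches on either strand to the CCAAT box, the E-box of letters CACGTG, the TATA box of letters TATAAA, the AP-1 consensus of letters TGANTCA or the p53 half-site consensus, and no matches overlap in these windows.
GADD45B: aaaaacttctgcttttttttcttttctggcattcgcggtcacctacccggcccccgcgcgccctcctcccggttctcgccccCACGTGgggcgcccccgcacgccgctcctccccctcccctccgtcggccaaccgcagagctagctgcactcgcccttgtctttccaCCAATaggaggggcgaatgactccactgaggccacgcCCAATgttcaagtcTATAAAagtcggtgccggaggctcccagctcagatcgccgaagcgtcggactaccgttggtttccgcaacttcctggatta
GADD45G: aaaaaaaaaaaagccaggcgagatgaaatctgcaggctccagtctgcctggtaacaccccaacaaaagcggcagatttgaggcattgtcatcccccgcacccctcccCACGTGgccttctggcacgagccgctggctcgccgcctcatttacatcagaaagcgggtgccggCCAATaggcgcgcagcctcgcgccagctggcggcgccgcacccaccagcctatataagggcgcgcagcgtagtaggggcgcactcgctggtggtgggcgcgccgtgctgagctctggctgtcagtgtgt
Positions count from the annotated start, with -1 the base before it. Both windows hold CACGTG, which begins at -168 in GADD45B and at -143 in GADD45G. They also hold CCAAT, which begins at -82 and -45 in GADD45B and at -79 in GADD45G. TATAAA begins at -31 in GADD45B and was found in the searched window of no other of the 23 matched members. Only the first listed promoter of each matched member was searched, whereas the background of 35116 counts every listed promoter. In all, CACGTG was in 4 of 23 members against 7.26% of 35116 promoters, CCAAT in 9 of 23 against 34.6%, and TATAAA in 1 of 23 against 11.5%. TGANTCA was in 3 of 23 members (SFN, FAS and SERPINB5) against 7.71% of promoters. The p53 half-site was in 5 of 23 (PLK2, EI24, RPS27L, AEN and FDXR) against 6.63%. These matches describe the letters in the windows only. Only the exact letters TATAAA were sought, so the similar run tatataag in the GADD45G window is not marked.

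GADD45A, on chromosome 1 of hg19 from 68150743 to 68154021, had 1 tested coding sequence, which the authors' deposited table gives at 8.57 FPKM in BB608 and 18.7 FPKM in DMSO. Its log2 fold was -1.13 (95% interval -1.44 to -0.81, implied SE 0.16), with a Cuffdiff p of 5e-05 and q of 0.0154, the smallest q in the deposited table. That q is a floor set by the smallest p and is shared by other called genes, so it gives GADD45A no rank among them. The other GADD45A coding sequence was not tested and lay at 8e-06 FPKM in BB608 and 0.074 FPKM in DMSO. The gene sum was therefore almost the same as the called sequence, at 8.57 FPKM in BB608 and 18.8 FPKM in DMSO, a log2 fold of -1.13. Of all 10859 genes kept for comparison, 0.976% had a gene sum that was as low or lower relative to DMSO. Kept genes had a tested coding sequence and a sum that reached 1 FPKM in either group.

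GADD45B, on chromosome 19 of hg19 from 2476119 to 2478597, had 4 tested coding sequences with folds of both signs. The most abundant one had 5.999 FPKM in BB608 and 15.7 FPKM in DMSO in the authors' deposited table. Its log2 fold was -1.39 (95% interval -1.72 to -1.07, implied SE 0.17), again with a Cuffdiff p of 5e-05 and q of 0.0154 in that deposited table. The next had 2.51 FPKM in BB608 and 4.09 FPKM in DMSO in the deposited table, with a log2 fold of -0.70 (p 0.424, q 0.997, implied SE 0.97). The remaining pair were higher in BB608, at 1.96 FPKM in BB608 against 0.739 FPKM in DMSO and at 1.85 FPKM in BB608 against 0.701 FPKM in DMSO. Neither passed the test in the authors' deposited table, with a p of 0.396 and 0.408 and implied SEs of 1.37 and 2.12. The 3 uncalled sequences summed to 6.32 FPKM in BB608 and 5.53 FPKM in DMSO. The called sequence made up 48.7% of the gene sum in BB608 and 74.0% in DMSO. Over all 4, the gene sum was 12.3 FPKM in BB608 and 21.3 FPKM in DMSO, a log2 fold of -0.79, smaller in size than that of the called sequence. Overlapping coding sequences share reads that Cufflinks has to apportion, so the split within GADD45B is less certain than its sum.

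GADD45G, on chromosome 9 of hg19 from 92219927 to 92221805, was much less abundant. Its tested coding sequence had 0.357 FPKM in BB608 and 0.672 FPKM in DMSO, with a log2 fold of -0.91 (95% interval -2.61 to 0.79, implied SE 0.87, p 0.234, q 0.997) in the authors' deposited table. The other, not tested, had 0.376 FPKM in BB608 and 0.536 FPKM in DMSO. Its gene sum was 0.733 FPKM in BB608 and 1.21 FPKM in DMSO, a log2 fold of -0.72. This gene reached the minimum of 1 FPKM through DMSO alone, so it could not have been kept at this BB608 level without being higher in DMSO. The interval holds both no change and a fall as large as that of GADD45A, so the values do not show that GADD45G stayed level. Summed over the family, GADD45 transcripts came to 21.6 FPKM in BB608 and 41.3 FPKM in DMSO, which is 52.4% of the DMSO value.

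**Figure D1:**
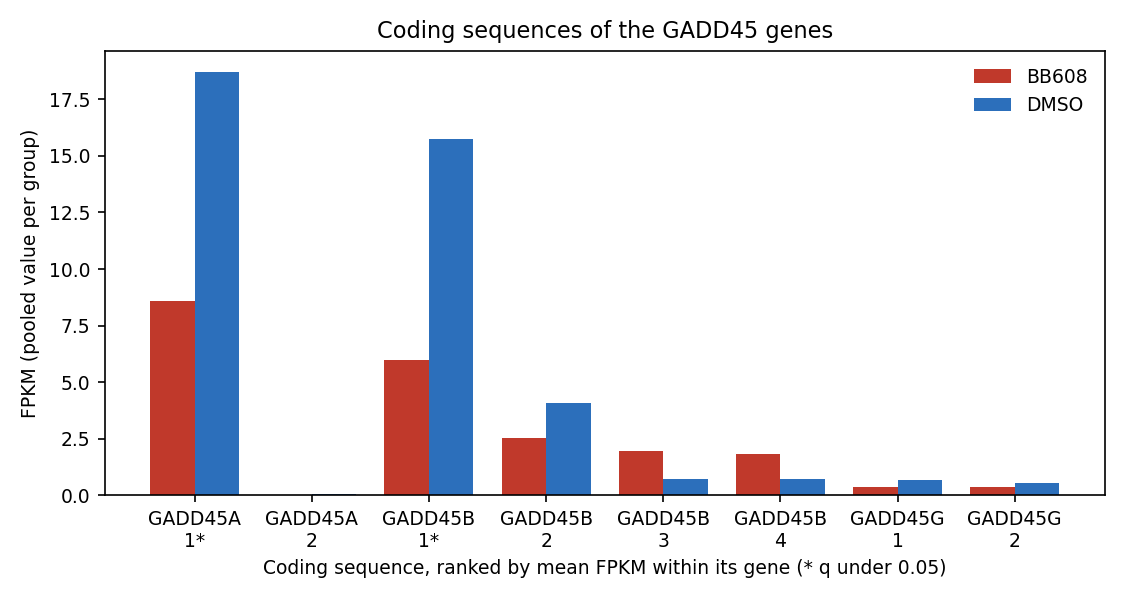
Pooled FPKM in BB608 (left bar) and DMSO (right bar) for each of the 8 coding sequences of GADD45A, GADD45B and GADD45G, numbered by abundance within the gene. The 2 called sequences, marked by asterisks, stand at 8.57 and 5.999 FPKM in BB608 against 18.7 and 15.7 FPKM in DMSO.

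The folds of the called sequences were not extreme among the calls. By log2 fold GADD45B took place 15 and GADD45A place 22 among the 73 called falls in the authors' deposited table. Calls were more frequent where a gene had a single tested coding sequence, as GADD45A did. Of 3551 such genes 1.27% had a called fall in the deposited table, whereas of 7878 genes with several tested coding sequences, such as GADD45B, 0.343% had one.

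**Figure D2:**
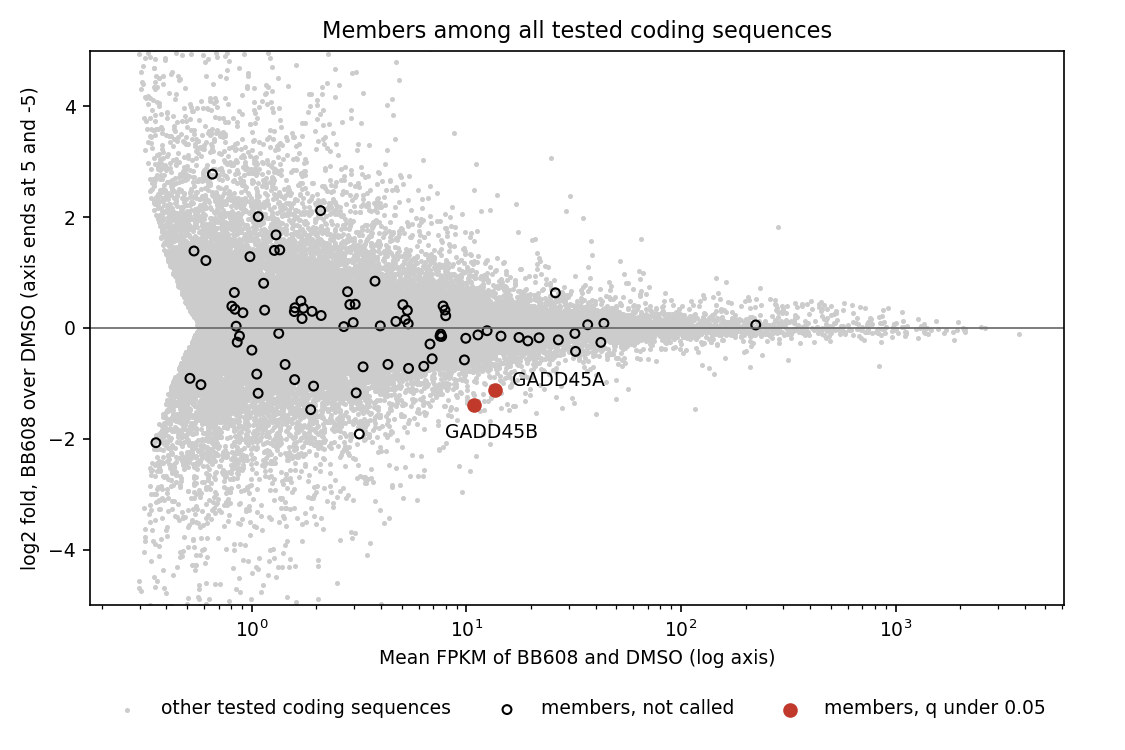
Log2 fold of BB608 over DMSO against mean FPKM (log axis) for tested coding sequences with at least 0.001 FPKM in both groups; grey points are other genes, open circles are members that were not called and red points are the 2 called members. Of 87 tested member sequences 80 are drawn, 5 lie under 0.001 FPKM in a group and the others fall outside the vertical axis; GADD45A and GADD45B, at -1.13 and -1.39, lie below the other members of like abundance.

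The feedback regulators of p53 showed no called change. MDM2, the ubiquitin ligase that degrades p53, lies in a locus on chromosome 12 of hg19 from 69201955 to 69365350 that the table also lists under the gene name CPM. MDM2 had the second highest gene sum of the members in DMSO, at 86.2 FPKM in BB608 and 101.05 FPKM in DMSO, a log2 fold of -0.23. The sum is divided over 25 coding sequences, of which 14 were tested, 8 lower and 6 higher in BB608, and the smallest p was 0.251 in the authors' deposited table. The main MDM2 coding sequence had 38.5 FPKM in BB608 and 46.2 FPKM in DMSO, with an interval of -1.92 to 1.40 on the log2 scale that leaves large changes of this sequence undetectable. MDM4, a relative of MDM2 that blocks p53 activation, had gene sums of 25.6 FPKM in BB608 and 27.5 FPKM in DMSO. CCNG1, which encodes cyclin G1, a recruiter of phosphatase 2A to MDM2, had 55.9 FPKM in BB608 and 56.4 FPKM in DMSO. PPM1D, the phosphatase WIP1 that switches off p53 signalling, had 2.71 FPKM in BB608 and 3.76 FPKM in DMSO, a log2 fold of -0.47. All 4 gene sums were thus lower in BB608, by 0.01 to 0.47 on the log2 scale, and no coding sequence among their 28 tested ones had a p under 0.05, which is near the 3.31% of all 34474 tested coding sequences with such a p.

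Cell cycle members outside the GADD45 family were without a called change. SFN, the 14-3-3 sigma protein that holds CDK1 complexes in the cytoplasm and an epithelial marker, was the most abundant member. Its single coding sequence had 227 FPKM in BB608 and 219 FPKM in DMSO in the authors' deposited table. The log2 fold was 0.05, with the narrowest interval of the members, -0.13 to 0.23. PLK2, a polo-like kinase induced by stress, had 13.7 FPKM in BB608 and 15.2 FPKM in DMSO, with an interval of -0.76 to 0.46. CCNG2, an atypical cyclin linked to cell cycle exit, had gene sums of 1.48 FPKM in BB608 and 2.18 FPKM in DMSO, a log2 fold of -0.56. For its only tested coding sequence the authors' deposited table gives a log2 fold of -0.66 (p 0.165, q 0.997, implied SE 0.49). PLK3 is listed with 1 coding sequence, not tested, at 5e-13 FPKM in BB608 and 0.212 FPKM in DMSO. Its locus also carries the names BTBD19 and TCTEX1D4. Whether its low values reflect the cells or the annotation is not known.

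**Figure D3:**
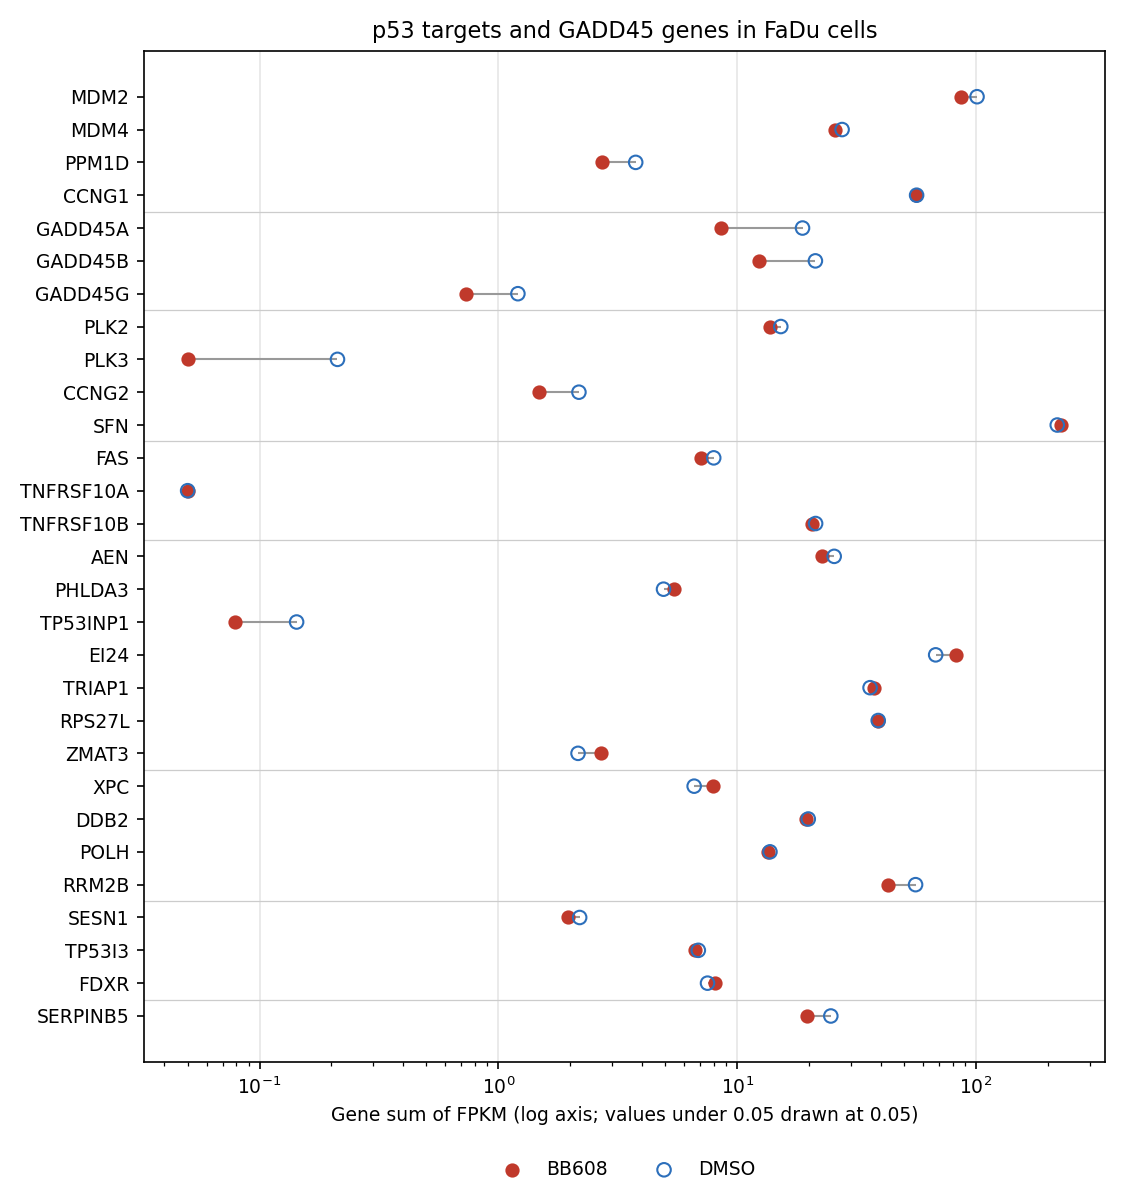
Gene sums in FPKM (log axis) of the 29 members in BB608 (filled red) and DMSO (open blue), grouped by role; values under 0.05 are drawn at 0.05. The longest lines among members above 1 FPKM in both groups are those of GADD45A, at 8.57 FPKM in BB608 and 18.8 FPKM in DMSO, and GADD45B, at 12.3 FPKM in BB608 and 21.3 FPKM in DMSO.

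Death receptor genes differed widely in listed level. TNFRSF10B, which encodes the TRAIL receptor DR5, had gene sums of 20.5 FPKM in BB608 and 21.3 FPKM in DMSO, a log2 fold of -0.06. Its most abundant coding sequence had an interval of -0.97 to 0.87. TNFRSF10A, the related TRAIL receptor DR4, was listed at or near 0 in both coding sequences and both groups. Neither sequence was tested, and whether these values reflect the cells or the annotation is not known. FAS, the receptor of FAS ligand, had gene sums of 7.08 FPKM in BB608 and 7.98 FPKM in DMSO, a log2 fold of -0.17. Its most abundant tested coding sequence was higher in BB608, at 2.10 FPKM in BB608 and 1.71 FPKM in DMSO, a log2 fold of 0.30 (95% interval -0.42 to 1.02), and the next had 1.95 FPKM in BB608 and 1.53 FPKM in DMSO. The lower sum thus rests on 1 other coding sequence, which had 2.84e-06 FPKM in BB608 and 3.01 FPKM in DMSO (p 0.0825, q 0.997 in the authors' deposited table), while another had 1.14 FPKM in BB608 and 0.167 FPKM in DMSO (p 0.0686, q 0.997). None of the 5 tested FAS coding sequences passed the test, so no direction is given for the gene.

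The other apoptosis and survival genes had 6 tested members, of which 4 had higher and 2 had lower gene sums in BB608, with none called. EI24, a membrane protein of the endoplasmic reticulum, had the highest sum of this group, at 82.5 FPKM in BB608 and 67.8 FPKM in DMSO, a log2 fold of 0.28. ZMAT3, an RNA-binding protein that regulates splicing, had the largest positive fold of all kept members, 0.31, at 2.68 FPKM in BB608 and 2.16 FPKM in DMSO. PHLDA3, which opposes AKT at the membrane, had 5.46 FPKM in BB608 and 4.92 FPKM in DMSO, with an interval of -0.17 to 0.48. TRIAP1, which carries phospholipids in mitochondria and inhibits apoptosis, had 37.5 FPKM in BB608 and 36.02 FPKM in DMSO, with an interval of -0.39 to 0.50. RPS27L, a relative of the ribosomal protein gene RPS27 with which it may share reads, had 38.9 FPKM in BB608 and 39.0 FPKM in DMSO. AEN, an exonuclease that acts in apoptosis, had gene sums of 22.6 FPKM in BB608 and 25.5 FPKM in DMSO, and for its main coding sequence the authors' deposited table gives -0.24 on the log2 scale (p 0.0768, q 0.997, implied SE 0.13). TP53INP1, which promotes p53 phosphorylation, was not tested and summed to 0.0786 FPKM in BB608 and 0.143 FPKM in DMSO.

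DNA repair members had no coding sequence with a p under 0.05 among 15 tested in the authors' deposited table, a count near the background of 3.31%. DDB2, the ultraviolet damage sensor of nucleotide excision repair, had gene sums of 19.4 FPKM in BB608 and 19.9 FPKM in DMSO, and its main coding sequence had an interval of -0.50 to 0.15. XPC, which recognises helix-distorting damage, had 7.89 FPKM in BB608 and 6.61 FPKM in DMSO, a log2 fold of 0.26. POLH, the translesion polymerase eta, had 13.5 FPKM in BB608 and 13.7 FPKM in DMSO. RRM2B, the p53-inducible subunit of ribonucleotide reductase, had 42.7 FPKM in BB608 and 55.9 FPKM in DMSO, a log2 fold of -0.39. Its main coding sequence had an interval of -2.03 to 1.18, so a change of this size was not detectable there.

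Redox and metabolic members included the pair with an unadjusted p under 0.05. TP53I3, an NADPH quinone oxidoreductase also called PIG3, had a coding sequence at 0.995 FPKM in BB608 and 2.77 FPKM in DMSO, or -1.48 on the log2 scale (p 0.00255, q 0.405, implied SE 0.44), in the authors' deposited table. Its other coding sequences were higher in BB608, at 3.41 FPKM in BB608 against 2.17 FPKM in DMSO and at 2.27 FPKM in BB608 against 1.94 FPKM in DMSO. The TP53I3 gene sum was 6.67 FPKM in BB608 and 6.88 FPKM in DMSO, a log2 fold of -0.04. SESN1, a sestrin that restrains the growth kinase complex mTORC1, had a minor coding sequence at 0.137 FPKM in BB608 and 0.577 FPKM in DMSO, or -2.07 on the log2 scale (p 0.0163, q 0.997, implied SE 0.70), in the authors' deposited table. The main SESN1 sequence had 1.81 FPKM in BB608 and 1.61 FPKM in DMSO. With GADD45A and GADD45B, 4 of the 26 tested members had a coding sequence at an unadjusted p under 0.05. FDXR, the mitochondrial ferredoxin reductase, had gene sums of 8.06 FPKM in BB608 and 7.52 FPKM in DMSO. SERPINB5, the epithelial serpin maspin, had 19.5 FPKM in BB608 and 24.7 FPKM in DMSO, and all 3 of its tested coding sequences were lower in BB608 without passing the test.

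**Figure D4:**
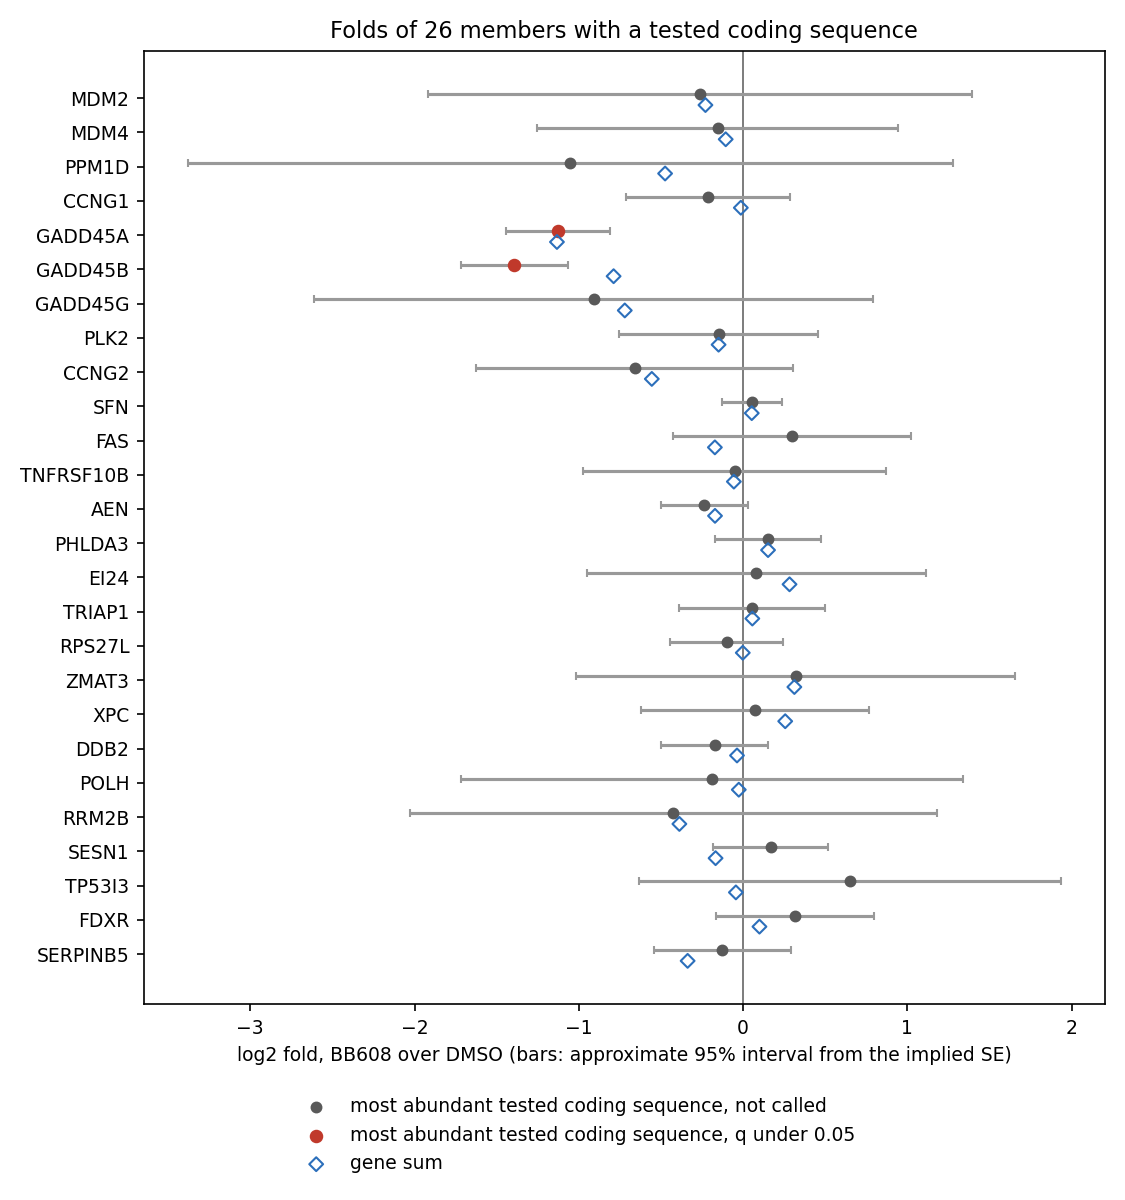
Log2 fold of BB608 over DMSO for the 26 tested members, as the most abundant tested coding sequence (circles, red where q was under 0.05, with bars for the approximate 95% interval) and as the gene sum (blue diamonds). GADD45A, from -1.44 to -0.81, and GADD45B, from -1.72 to -1.07, have the only intervals that leave out 0.

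How far the members outside the GADD45 family could have moved depended on their precision. Their most abundant tested coding sequences had implied SEs of 0.092 to 1.19, with a median of 0.36. For 13 of these 23 the 95% interval lay within 1 log2 on both sides, among them SFN, TRIAP1, RPS27L, DDB2, AEN, PHLDA3 and CCNG1. For the other 10, among them MDM2, RRM2B, PPM1D and POLH, the interval reached beyond 1 log2, so these values cannot show whether they stayed level. Each interval covers 1 coding sequence and does not bound the whole gene. In CCNG1 that sequence made up 44.4% of the gene sum in BB608 and 51.1% in DMSO.

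By gene sum, 19 of the 26 kept members were lower and 7 higher in BB608, whereas 42.4% of all 10859 kept genes were lower. Without the GADD45 genes, of which GADD45G was kept through DMSO alone, 16 of 23 were lower. Other counts were more even. By the most abundant tested coding sequence 16 members were lower and 10 higher, against 44.8% of kept genes lower. Over all 87 tested coding sequences of the members 41 were lower and 46 higher, against 45.6% of all tested coding sequences lower, and without the GADD45 genes 37 were lower and 44 higher. The members' median log2 fold was -0.08, and it was -0.04 without the GADD45 genes, against 0.03 for all kept genes. A log2 fold of -0.5 or lower was found in 4 members, namely the GADD45 genes and CCNG2, and in 4.87% of kept genes. Without the GADD45 genes it was found in 1 of 23. No member reached 0.5, against 6.75% of kept genes. These are descriptions of the listed genes and were given no test.

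Members also differed between the groups in how their FPKM was divided among coding sequences. In 4 of the 22 kept members with more than 1 coding sequence, the share of a coding sequence differed by at least 20 percentage points between BB608 and DMSO, against 14.4% of all 9176 such kept genes. They were FAS with 37.8 points, PPM1D with 31.4, TP53I3 with 25.3 and GADD45B with 25.3. The median of the largest change per gene was 8.02 points over these members and 7.81 points over all such genes, so the members as a whole resemble the background.

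**Figure D5:**
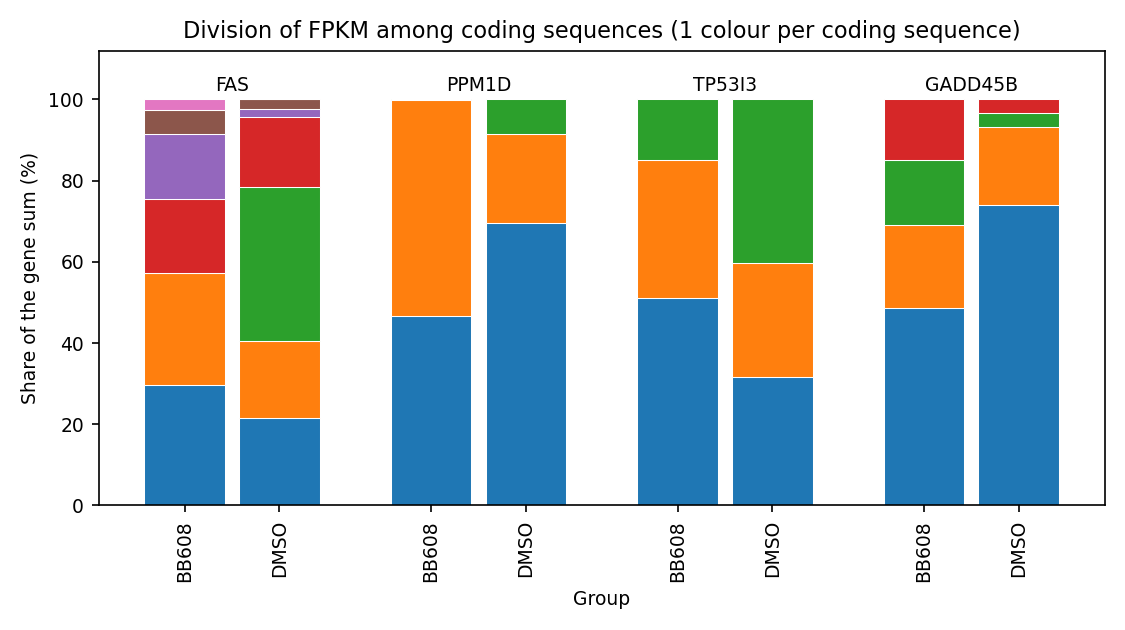
Share of the gene sum (%) taken by each coding sequence, 1 colour each, in BB608 (left bar) and DMSO (right bar) for FAS, PPM1D, TP53I3 and GADD45B, the members with a share change of 20 points or more. In GADD45B the called sequence, at the base of the bar, has 48.7% in BB608 and 74.0% in DMSO.

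Other p53 targets were mostly without a call but included 2 called genes. Of 57 tested, BTG2 fell and NOTCH1 rose by Cuffdiff's q in the authors' deposited table, against 0.63% of all tested genes lower and 0.429% higher. An unadjusted p under 0.05 was found in 14 of the 57, against 9.49% of all tested genes. Of the 56 kept, 8 had a gene-sum log2 fold of -0.5 or lower and 1 a fold of 0.5 or higher, against 4.87% and 6.75% of kept genes, and the median was -0.01 against 0.03. BTG2, an antiproliferative gene, fell to 2.27 FPKM in BB608 against 4.79 FPKM in DMSO, or -1.08 on the log2 scale (q 0.0154, implied SE 0.14), in the deposited table. The NOTCH1 receptor gene rose to 6.22 FPKM in BB608 against 4.43 FPKM in DMSO in that deposited table. CDKN1A, the cell cycle inhibitor p21 and a binding partner of GADD45 proteins, had 4.73 FPKM in BB608 and 11.7 FPKM in DMSO. Its log2 fold was -1.30 (Cuffdiff p 0.0286, q 0.997, implied SE 0.56) in the authors' deposited table, so it was not called. Among upstream regulators of the pathway the authors' deposited table held 0 calls by Cuffdiff's q in 21 tested genes. An unadjusted p under 0.05 was found in 5 of these 21, against 9.49% of all tested genes. A gene with more tested coding sequences has more chances of such a p. By coding sequence it was 5 of 105 in these regulators, against 3.31% of all tested coding sequences. Among GADD45 partners the deposited table held 0 calls in 16 tested genes, with 1 at an unadjusted p under 0.05, which was CDKN1A. With so few of all genes called, a count of 0 in lists of this size is near the background. The lists of other p53 targets, upstream regulators and GADD45 partners were also chosen with earlier results of these data known. Their counts thus do not show an excess of calls.

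Stress-induced genes that respond to many of the same stimuli as the GADD45 genes were also examined. Of 8 such genes, chosen with earlier results of these data known, 5 fell by Cuffdiff's q in the authors' deposited table and none rose, against 0.63% of all tested genes lower and 0.429% higher. Because the genes were chosen in that way, the count does not show that stress genes hold more calls. All 8 gene sums were lower in BB608, with a median log2 fold of -0.53. Of all kept genes 42.4% were lower, with a median of 0.03. The 3 GADD45 gene sums had a median of -0.79, with GADD45G kept through DMSO alone. The transcription factor ATF3 had gene sums of 3.45 FPKM in BB608 and 15.1 FPKM in DMSO, the AP-1 subunit FOS 74.8 FPKM in BB608 and 114 FPKM in DMSO, and the phosphatase gene DUSP1 6.91 FPKM in BB608 and 17.3 FPKM in DMSO. PPP1R15A, also known as GADD34 though outside the GADD45 family, had 13.9 FPKM in BB608 and 21.9 FPKM in DMSO, and IER3 had 42.1 FPKM in BB608 and 58.01 FPKM in DMSO. The call rested on 1 of 4 tested coding sequences in ATF3 and on 1 of 8 in FOS. In PPP1R15A and in IER3 it rested on 1 of 2, and DUSP1 had 1 tested coding sequence. Whether the GADD45 falls and the falls of these stress genes share a source was not tested.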

How the data were processed

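Total RNA of 6 FaDu libraries, 3 with BB608 and 3 with DMSO, was prepared with a stranded kit that depletes ribosomal RNA, per the labels' protocols. The submitters' processing notes name hg19, TopHat2 2.0.11, Cufflinks 2.2.1 and Cuffdiff, and no source used here gives the annotation. The authors deposited 1 FPKM value per group and coding sequence, pooled over libraries, with a log2 fold and a test statistic, treated here as score values, and a p-value and q-value for 34474 tested coding sequences. Both deposited group names end in the word subset, whose meaning no source used here gives.

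Members and lists were chosen with earlier results of these data known. A call is a deposited q under 0.05; its smallest value, 0.0154, is a floor set by the smallest p of 5e-05. Deposited q-values matched a Benjamini-Hochberg adjustment to within 5.23e-07. The implied SE is the log2 fold over the statistic, divided by 1.73, the median ratio of the normal quantile of p to the statistic over 33027 coding sequences, and needs at least 0.001 FPKM in both groups. Gene sums have no pseudocount. Implied SEs and gene sums were also computed on simulated folds drawn with the same implied SEs. That checks the arithmetic only, not the authors' test. Every member is accounted for; of wider lists, called genes, CDKN1A and BTG2 are named, and 1 listed gene is not reported here. Python 3.11.15, pandas 2.3.3, numpy 2.4.6 and scipy 1.17.1 were used. Since only pooled values exist in the table, the foreseen limma fit was replaced by this description.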

Additional observations from a re-analysis of the deposited data

How the results depend on the processing

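GADD45A and GADD45B were called, lower in BB608, under a mean FPKM of at least 1, with the most abundant tested coding sequence, with normal p-values and with a bound of 1 log2. Each called sequence already met these bounds, being the most abundant of its gene, above 1 FPKM and beyond 1 log2. The normal p-values came from the same statistic. These settings are therefore no independent check of either call. The settings added after seeing the data differed: an unadjusted p under 0.05 gave 4 members, and genes with a single tested coding sequence gave 1, since GADD45B has several. The members' median of -0.081 became -0.14 with the most abundant coding sequence, -0.12 after quantile normalization and -0.043 with gene sums of at least 5 FPKM; the cause was not tested. Of 129 recomputed member folds 125 moved by less than the implied SE of the main coding sequence, and 4 moved further, all with the most abundant coding sequence, where GADD45B had -1.39 and FAS, SESN1 and TP53I3 changed sign. Scaling changed no sign.

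No paired analysis was possible because the values analysed here are pooled per group; leaving out a replicate was not run for the same reason. Unknown depth limits low members such as GADD45G, CCNG2 and PPM1D.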
